A study of Mus musculus with 6 samples.

Results

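The Myc family and the Max network were examined across the genotypes as 10 genes (Myc, Mycn, Max, Mxd1, Mxd3, Mxd4, Mxi1, Mnt, Mga and Mlx), taken by name from the 19938 genes measured. Each member was read by 1 probe set, the row whose annotation named that gene and no other, so all 10 of 10 were measured and no filter on low values removed any. The cells were LSK CD150- cells sorted from mouse bone marrow, a population of early blood progenitors without mature lineage markers, with Sca-1 and Kit and without the stem cell marker CD150. In the deleted group, Cebpafl/fl;Mx1Cre, both copies of Cebpa are flanked by loxP sites and the Mx1 promoter drives Cre after pIpC. In the control group, Cebpafl/fl, the same floxed alleles are present without the transgene. Both groups received pIpC, a double-stranded RNA that induces interferon, and were taken 18 days later, with 3 mice and 3 arrays per group. Carrying Cre and losing Cebpa cannot be told apart in this design, and the Mx1 promoter is active in interferon-responsive cells in general and not in blood progenitors alone. No age is given in the labels.

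Myc and its relatives are transcription factors of the basic helix-loop-helix leucine zipper class. Myc and N-Myc bind DNA as dimers with Max, mostly at the E-box CACGTG, and raise the transcription of genes for ribosome biogenesis, nucleotide synthesis and growth. The Mxd proteins, Mxi1 and Mnt compete for Max and recruit Sin3 corepressors, Mga joins Max to a Polycomb complex (PRC1.6), and Mlx dimerises with the glucose-sensing factors Mlxip and Mlxipl. In mouse cells C/EBPα is known to repress Myc through an E2F element during granulocyte differentiation, and Myc and Mycn together support the proliferation and survival of haematopoietic stem and progenitor cells. The comparison asks whether the transcripts of this network differed once Cebpa was deleted.

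The promoters are shown first because the members are both DNA-binding proteins of the E-box and, in part, carriers of it. Promoter windows running from 250 bases before to 50 bases after a transcription start were taken from RefSeq (GRCm38.p6). Of the 10 members 9 matched, with 11 windows in all, and Myc did not match. The E-box CACGTG, which reads the same on both strands, stood in the windows of 4 members, Max, Mxd4, Mnt and Mlx, and in 7.15% of all 32851 windows. The stretches around these 4 E-boxes are printed 5′ to 3′ along the gene with the E-box in capitals, and lie at chr12:76962221-76962276 (- strand), chr5:34187899-34187954 (- strand), chr11:74830776-74830831 (+ strand) and chr11:101087225-101087280 (+ strand).
Max: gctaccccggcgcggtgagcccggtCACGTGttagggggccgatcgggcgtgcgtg
Mxd4: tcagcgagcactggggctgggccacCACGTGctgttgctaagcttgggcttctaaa
Mnt: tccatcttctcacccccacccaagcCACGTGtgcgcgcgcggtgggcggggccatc
Mlx: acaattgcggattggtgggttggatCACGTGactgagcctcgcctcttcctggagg
The E-box began 3 bases before the start of Max, 219 before that of Mxd4, 123 before that of Mnt and 40 before that of Mlx. A search for the C/EBP core TTGCNNAA on both strands found 1 member window, that of Mxd4, against 10.8% of all windows. The window of Mycn is shown because E2F elements are the known route of C/EBPα to Myc. It is the single member window, against 5.17% of all windows, with the E2F-like word TTTNNCGC on either strand, in capitals below, with 3 matches of which the first and second overlap. It lies at chr12:12941787-12942086 (- strand).
Mycn: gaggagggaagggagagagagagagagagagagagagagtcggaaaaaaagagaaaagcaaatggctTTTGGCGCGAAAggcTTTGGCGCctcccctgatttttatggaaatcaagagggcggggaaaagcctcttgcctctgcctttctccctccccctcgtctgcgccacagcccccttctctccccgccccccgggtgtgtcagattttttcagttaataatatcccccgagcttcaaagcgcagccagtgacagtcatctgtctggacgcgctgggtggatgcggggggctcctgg
The looser word CACGNG on either strand, which includes the E-box, stood in 8 of the 11 member windows and in 27.5% of all windows. The windows belong to 7 of the 9 matched members, since overlapping windows of Mxi1 hold the same match. These matches describe letters in a window and say nothing on binding.

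The deletion was read first. Cebpa, on chromosome 7, had log2 signals of 6.37, 5.82 and 6.09 in deleted mice, against 7.84, 7.85 and 7.73 in control mice. It fell by 1.71 ± 0.14 on the log2 scale (SE, n = 3 per genotype, limma adjusted p = 0.000883), which is 3.27-fold lower. By exact permutation of its 6 values, two-sided, p was 0.1, and 3 against 3 cannot go lower. The position of this probe set relative to the floxed exon is not known here. The labels call the mice female, whereas on all 6 arrays the Y-linked Eif2s3y and Kdm5d lay at 8.04 to 8.49 and Xist at 4.46 to 5.13. Array medians were 6.16 to 6.20 in deleted and 6.22 to 6.23 in control samples. Of the markers of the sorted cells, Kit read 9.59, 9.37 and 9.23 in deleted mice, against 10.02, 10.31 and 10.10 in control mice, and fell (limma adjusted p = 0.0270). Cd48, a marker of multipotent progenitors, rose by 1.00 on the log2 scale (adjusted p = 0.00520), and Slamf1, which encodes CD150, lay at 3.94 to 4.86 in deleted and 3.48 to 3.93 in control mice, below every array median. Some markers of other cells moved with genotype. Of 8 neutrophil markers 3 fell, with a mean log2 signal of 6.42 to 6.58 in deleted and 7.56 to 7.74 in control arrays. Of 6 stem cell markers 3 fell (6.16 to 6.47 in deleted, 6.80 to 6.90 in control). Among 5 mast cell and basophil markers 2 rose, Cpa3, by 3.47 on the log2 scale, and Gzmb (adjusted p = 0.0438). The mean of the 5 was 6.91 to 7.55 in deleted and 5.84 to 5.93 in control arrays. Ms4a2, Mcpt8 and Fcer1a did not pass, with log2 fold changes of 0.53, 0.085 and -0.068 (adjusted p = 0.18, 0.840 and 0.891). The mast cell and basophil list thus did not move as a whole. Of 4 monocyte markers 1 fell, Cd68, by 0.90 on the log2 scale (adjusted p = 0.00520), and the mean of the 4 was 6.55 to 6.77 in deleted and 6.69 to 6.88 in control arrays. Of 3 erythroid and 5 lymphoid markers 0 passed. The mean of the lymphoid markers was nonetheless higher without overlap, at 6.28 to 6.58 in deleted and 6.06 to 6.21 in control arrays. Of these, 4 were above 0 and 1 below. The erythroid means overlapped. The part of all these markers in the results below was not tested. In sorted cells read in bulk, fewer cells of a type and less RNA per cell cannot be told apart.

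No member of the network passed the test. Over all genes, limma called 1.43% at a Benjamini-Hochberg adjusted p under 0.05 (0.702% higher and 0.732% lower in deleted mice). Of the 10 members 0 were called, with adjusted p-values between 0.0938 and 0.979, and 1 had an unadjusted p under 0.05. An ordinary pooled-variance test per gene called 0 of all 19938 genes, Cebpa included, so its 0 among the members says nothing about them. The log2 fold changes, deleted minus control, ran from -0.32 for Max to 0.43 for Mxd4, with 6 above and 4 below 0 and a median of 0.05. The median over all genes was 0.03, with 56.5% above 0. The genotypes did not overlap for 3 members, 2 higher and 1 lower in deleted mice (12.5% and 8.68% of all genes, 21.2% together). The 95% intervals of all 10 members lay within a 2-fold change in either direction, and those of 7 within 1.5-fold. The other 3 were Max, Mxd3 and Mxd4.

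**Figure D1:**
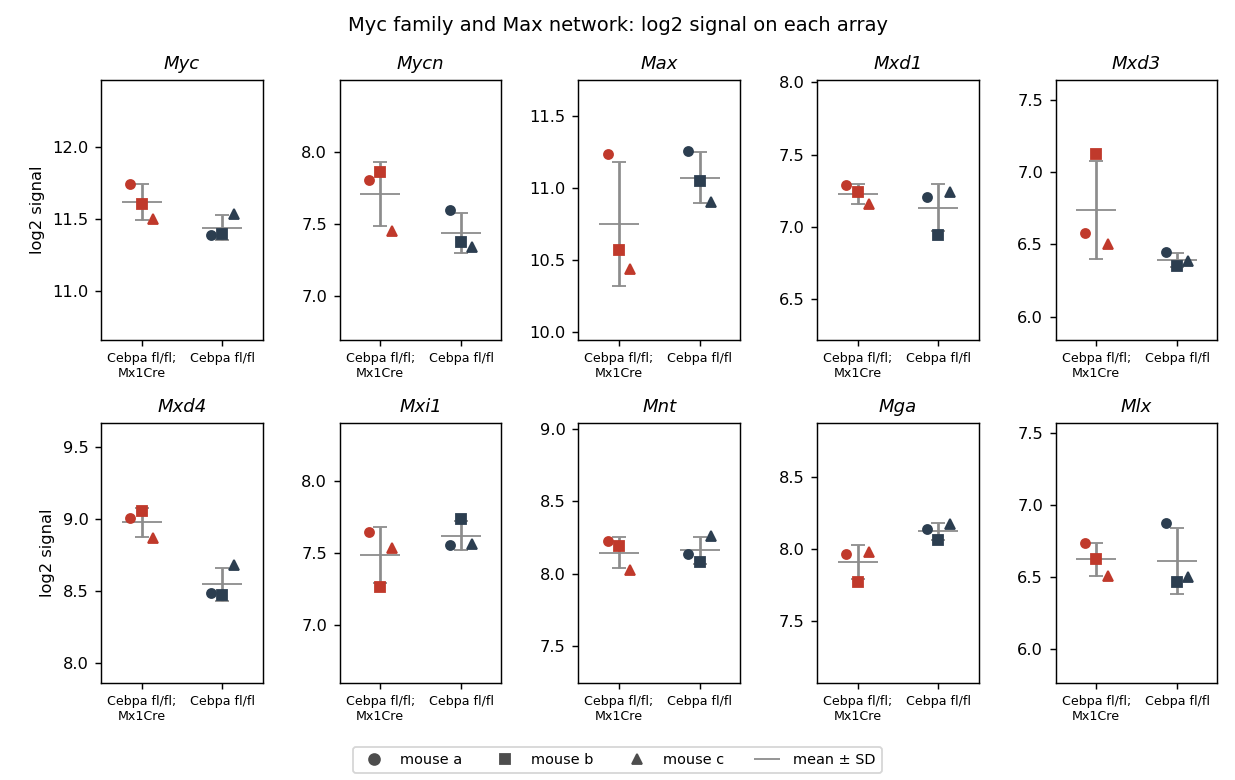
Log2 signal (y axis) of each of the 10 members on the 6 arrays, with Cebpafl/fl;Mx1Cre left of Cebpafl/fl. Symbols are mice (a, b and c name different animals in the 2 groups), grey bars the mean ± SD of 3 mice, and every panel spans the same range of log2 units. Mxd4 and Mxd3 are higher and Mga is lower in deleted mice without overlap, and the other panels overlap.

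Myc and Mycn, the activating members, are the genes for which repression by C/EBPα is known. Myc, on chromosome 15, read 11.75, 11.61 and 11.50 in deleted mice, against 11.39, 11.40 and 11.54 in control mice. Deleted a and b lay above every control, and deleted c lay below control c. Its log2 fold change was 0.18 ± 0.11 (SE, n = 3 per genotype, limma adjusted p = 0.485). Without deleted a it was 0.11 (adjusted p = 0.666). The 95% interval over all 6 arrays, from 0.954-fold to 1.34-fold, holds no change and leaves out a rise of 1.5-fold. The signal of Myc stood at the 99.0th percentile of all genes.

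Mycn, on chromosome 12, encodes N-Myc, which can stand in for Myc in blood progenitors. Its log2 signal was 7.81, 7.86 and 7.45 in deleted mice, against 7.59, 7.37 and 7.34 in control mice. Deleted a and b were again above every control, whereas deleted c lay below control a. The log2 fold change of 0.27 ± 0.13 (SE, n = 3 per genotype, limma adjusted p = 0.377) had a 95% interval from 0.977-fold to 1.49-fold. Without deleted c it was 0.40 (adjusted p = 0.214), and without deleted b 0.19 (0.631). Both estimates were thus above 0 on the deposited values and under each of the 18 alternatives, and neither passed under any of them.

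Max, also on chromosome 12, is the shared partner of Myc, N-Myc, the Mxd proteins, Mnt and Mga. It had log2 signals of 11.24, 10.57 and 10.44 in deleted mice, against 11.26, 11.05 and 10.91 in control mice. Deleted a read about as high as control a, while deleted b and c lay below all controls. The spread among deleted mice, an SD of 0.43, was the widest of the 10 members, against 0.18 in controls. The log2 fold change was -0.32 ± 0.20 (SE, limma adjusted p = 0.478). It was -0.57 without deleted a (adjusted p = 0.109) and -0.17 without deleted c (0.794), so its size depends on single mice.

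Among the repressive partners of Max, Mxd4 differed most between the genotypes. Mxd4, on chromosome 5, encodes the Mxd protein also called Mad4, found in differentiating and resting cells. It read 9.01, 9.06 and 8.87 in deleted mice, against 8.49, 8.47 and 8.68 in control mice. Every deleted mouse was above every control. The log2 fold change was 0.43 ± 0.11 (SE, n = 3 per genotype), or 1.35-fold, with a 95% interval from 0.19 to 0.67 on the log2 scale, and the limma adjusted p over all genes was 0.0938. It thus did not pass, and over the 18 alternatives its adjusted p lay between 0.0609 and 0.269 and its log2 fold change between 0.39 and 0.50. This interval was the one of the 10 that left out 0. It covers 1 gene and is not adjusted for the number of genes.

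Mxd3, on chromosome 13, encodes the family member found in proliferating cells in S phase. Its log2 signal was 6.58, 7.13 and 6.50 in deleted mice, against 6.45, 6.35 and 6.39 in control mice. The genotypes did not overlap, but deleted c was above control a by a small step and deleted b stood apart from the others. The log2 fold change was 0.34 ± 0.16 (SE, limma adjusted p = 0.337), and 0.15 without deleted b (0.627). Of 7 measured proliferation markers, among them Mki67 and Top2a, 0 passed. Their mean log2 signal was 8.58 to 8.88 in deleted and 8.60 to 8.94 in control arrays.

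Mxd1, on chromosome 6, encodes Mad1, an antagonist induced as myeloid cells mature. It read 7.29, 7.24 and 7.15 in deleted mice, against 7.21, 6.94 and 7.24 in control mice, and the groups overlapped. The log2 fold change was 0.10 ± 0.11 (SE, limma adjusted p = 0.742), and 0.0038 without control b. Mxi1, on chromosome 19, encodes another Mxd-type repressor. Its signals were 7.65, 7.27 and 7.54 in deleted mice, against 7.56, 7.74 and 7.57 in control mice. They overlapped, and the difference was -0.13 ± 0.12 on the log2 scale (SE, adjusted p = 0.662). Without deleted b it was -0.03, and without deleted a -0.22.

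Mnt, on chromosome 11, encodes a broadly present Max partner that occupies the sites of Myc in resting cells. Its values were 8.22, 8.19 and 8.02 in deleted mice, against 8.13, 8.08 and 8.26 in control mice. They overlapped, and the log2 fold change of -0.02 ± 0.11 (SE, limma adjusted p = 0.963) changed sign between scalings, with 0.01 after quantile normalization and 0.03 after median centring. Mlx, also on chromosome 11, is not a partner of Max but is a partner of Mlxip and Mlxipl. It read 6.74, 6.62 and 6.50 in deleted mice, against 6.87, 6.46 and 6.50 in control mice, a difference of 0.01 ± 0.13 on the log2 scale (SE, adjusted p = 0.979). For Mnt the 95% interval ran from 0.838-fold to 1.17-fold, and for Mlx from 0.819-fold to 1.24-fold.

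Mga, on chromosome 2, encodes the large Max partner that also carries a T-box domain. Its log2 signal was 7.97, 7.77 and 7.98 in deleted mice, against 8.14, 8.06 and 8.18 in control mice. All deleted mice lay below all controls. This gave a log2 fold change of -0.22 ± 0.11 (SE, limma adjusted p = 0.365), and it stayed between -0.25 and -0.15 over the 18 alternatives. Of the members, Mxd3 and Mlx had the lowest signals relative to all genes, with mean signals at the 53.8th and 55.0th percentiles.

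**Figure D2:**
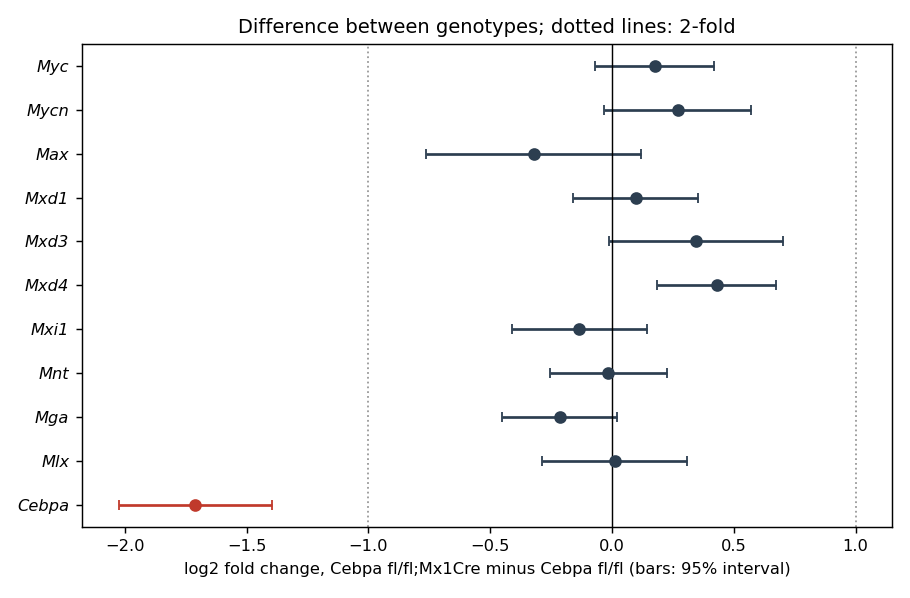
Log2 fold change, Cebpafl/fl;Mx1Cre minus Cebpafl/fl (x axis), of the 10 members and Cebpa, with 95% intervals of the limma fit on 6 arrays. Dotted lines mark 2-fold. The interval of Mxd4 (0.19 to 0.67) leaves out 0 and all 10 members' intervals lie inside the dotted lines, while that of Cebpa (-2.02 to -1.40) lies outside them.

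**Figure D3:**
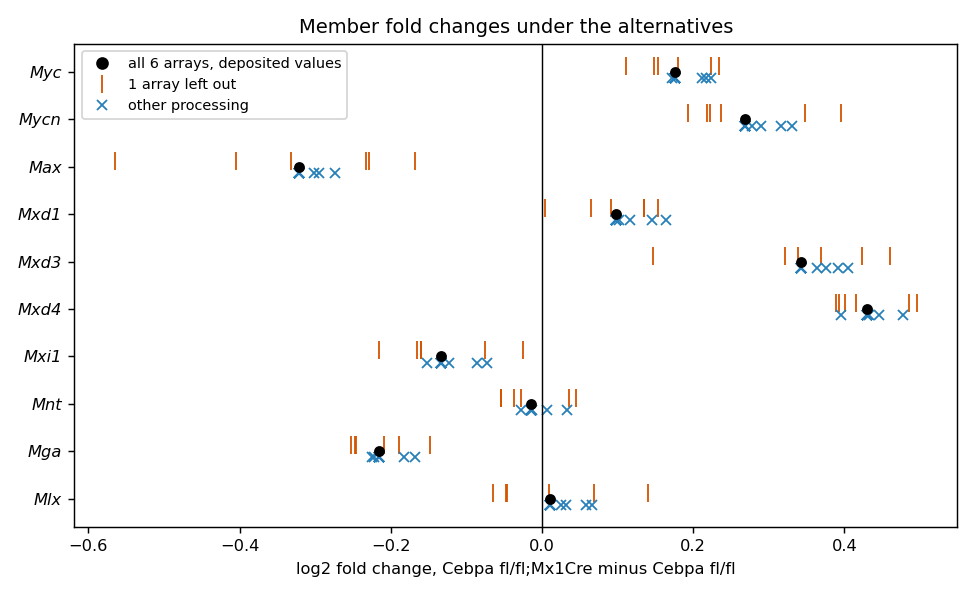
Log2 fold change of each member (x axis) with the deposited values of all 6 arrays (black), with 1 array left out (orange) and with other processing (blue). Mxd4 stays between 0.39 and 0.50, Max spreads from -0.57 to -0.17, and Mnt and Mlx lie on both sides of 0.

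The genes around the network were read from lists of its partners, regulators and targets. Of 116 measured genes in these lists other than the members and Cebpa, 7 passed the test (6.03%, beside 1.43% of all genes), with 6 higher and 1 lower in deleted mice. The lists were written with earlier results of these data known, so this share supports no statement on the network. The median log2 fold change of the 116 was 0.05. Those called were Rybp, Rnf2, Pim1, Pim2, Pes1, Pfkfb3 and Txnip.

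**Figure D4:**
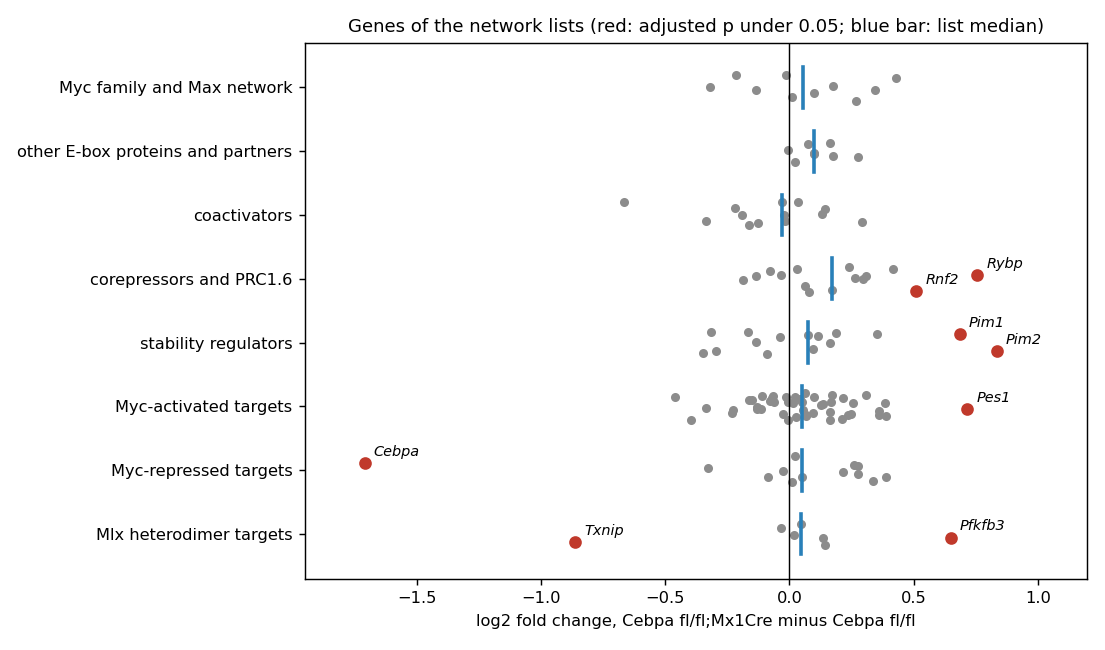
Log2 fold change, Cebpafl/fl;Mx1Cre minus Cebpafl/fl (x axis), of each measured gene in 8 lists (rows). Red points passed the limma test and are named, grey points did not, and blue bars are list medians. Medians lie between -0.03 for coactivators and 0.17 for corepressors and PRC1.6, and the members hold 0 red points.

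Corepressors and Polycomb partners contained 2 of the rises. Of 15 measured genes in this list, 2 rose and 0 fell, 11 were above 0, and the median log2 fold change was 0.17. In 7 the deleted mice lay above the controls without overlap and in 0 below. Over all genes 1.43% were called, and 12.5% lay above and 8.68% below the controls without overlap. Rybp, a PRC1 subunit that binds RING proteins, read 9.06, 9.07 and 9.15 in deleted mice, against 8.39, 8.24 and 8.37 in control mice. The groups were far apart relative to their spread, and Rybp rose by 0.76 ± 0.10 on the log2 scale (SE, 1.69-fold, limma adjusted p = 0.0106). The call was lost without control b (limma adjusted p = 0.0542) and held when any other single array was left out. A second probe set of Rybp read 6.90, 6.81 and 6.92 in deleted mice, against 6.62, 6.70 and 6.71 in control mice. It had a smaller log2 fold change of 0.20 and did not pass when every row was tested (adjusted p = 0.364), so the probe sets disagree in size.

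Rnf2, the RING1B ubiquitin ligase of PRC1, including PRC1.6 with Mga, read 8.33, 8.13 and 8.18 in deleted mice, against 7.74, 7.68 and 7.70 in control mice. It rose by 0.51 ± 0.10 on the log2 scale (SE, 1.42-fold, limma adjusted p = 0.0440) with no overlap, and lost its call when any 1 array was left out (adjusted p up to 0.148). Of the coactivators of Myc, 0 of 13 passed, and the median was -0.03. Trrap, the scaffold of histone acetyltransferase complexes recruited by Myc, had the smallest p of that list, with -0.67 ± 0.15 on the log2 scale (SE, adjusted p = 0.0689), followed by the elongation kinase gene Cdk9 at 0.29 ± 0.11 (SE, adjusted p = 0.243). Trrap lay at 8.30, 8.70 and 8.52 in deleted mice, against 8.89, 9.27 and 9.35 in control mice, without overlap.

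The kinases Pim1 and Pim2, which phosphorylate Myc and are known to stabilise it, rose. Of 15 genes for regulators of the stability of Myc proteins, 2 rose and 0 fell, with 8 above 0 and a median of 0.08. The share called over all genes was 1.43%. In 2 of the 15 the deleted mice lay above the controls without overlap and in 3 below, beside 12.5% and 8.68% of all genes. Pim2 read 7.52, 7.25 and 7.39 in deleted mice, against 6.76, 6.55 and 6.35 in control mice. It rose by 0.84 ± 0.13 on the log2 scale (SE, 1.79-fold, limma adjusted p = 0.0186). Pim1 read 8.45, 8.03 and 8.05 in deleted mice, against 7.38, 7.54 and 7.56 in control mice, and rose by 0.69 ± 0.13 (SE, 1.61-fold, adjusted p = 0.0426). For Pim3, their paralogue, the log2 fold change was -0.09 (adjusted p = 0.750). The call of Pim1 was lost when any 1 array was left out (adjusted p up to 0.130), and that of Pim2 without deleted a, deleted c or control b (up to 0.0781).

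Targets of Mlx and its partners moved in both directions. Txnip, which encodes an inhibitor of thioredoxin and of glucose uptake and is a classical target of Mlxip with Mlx, read 9.31, 9.15 and 9.15 in deleted mice, against 10.14, 10.05 and 10.01 in control mice. It fell by 0.86 ± 0.10 on the log2 scale (SE, 1.82-fold lower, 95% interval 1.55 to 2.13, limma adjusted p = 0.00671), and the call held when any 1 array was left out (adjusted p 0.0222 to 0.0393). Pfkfb3, which makes the activator of phosphofructokinase in glycolysis, read 8.52, 8.43 and 8.64 in deleted mice, against 7.92, 7.78 and 7.95 in control mice. It rose by 0.65 ± 0.11 (SE, 1.57-fold, adjusted p = 0.0238), a call lost on leaving out any array other than control c (up to 0.0968). Of 7 genes in the list these 2 passed, beside 1.43% of all genes. The paralogue target Arrdc4 was at -0.03 (adjusted p = 0.950). Mlxip and Mlxipl themselves had log2 fold changes of -0.01 (0.985) and 0.18 (0.497).

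The window of Txnip is printed because it carries the E-box variants that Mlx heterodimers are known to read. Capitals mark CACGNG on either strand, the looser word named above. Txnip had 4, and the second and the third lay with 5 bases between them, a spacing of such words found in 27 of 32851 windows (0.0822%) and in 0 of the members' windows. It lies at chr3:96557707-96558006 (+ strand).
Txnip: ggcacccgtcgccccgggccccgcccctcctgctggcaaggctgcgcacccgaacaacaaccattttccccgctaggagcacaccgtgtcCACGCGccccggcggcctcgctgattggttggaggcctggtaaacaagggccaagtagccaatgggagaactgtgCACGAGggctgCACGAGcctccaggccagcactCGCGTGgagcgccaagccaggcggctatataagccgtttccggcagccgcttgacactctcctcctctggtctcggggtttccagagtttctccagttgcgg
These matches began 85 and 74 bases before the start. The spacing of 5 bases was the only one searched. CACGNG also stood in windows of Rnf2, Pfkfb3, Pes1, Pim1 and Pim2, which rose. As for the members, the matches say nothing on binding.

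**Figure D5:**
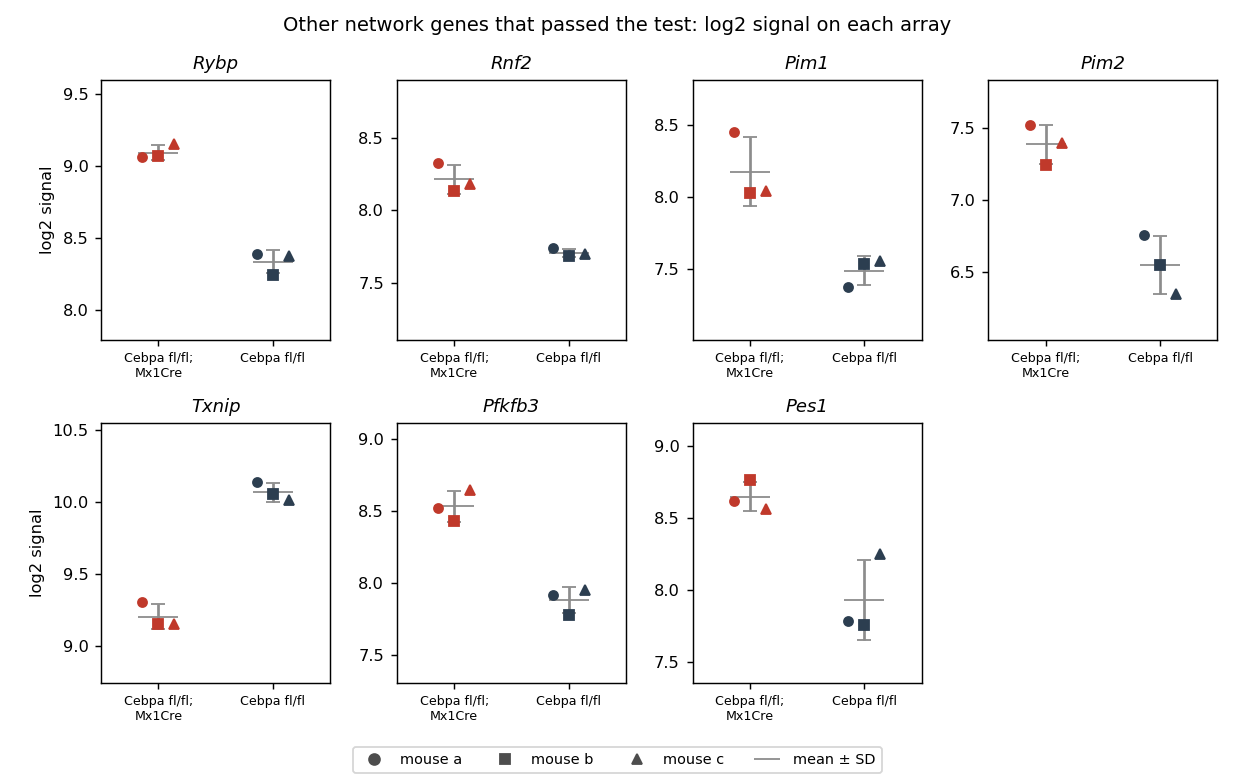
Log2 signal (y axis) on the 6 arrays of the 7 genes of the partner, regulator and target lists that passed the test, with Cebpafl/fl;Mx1Cre left of Cebpafl/fl. Symbols are mice, grey bars the mean ± SD of 3 mice, and every panel spans the same range. In each panel the 3 deleted mice stand apart from the 3 controls, below them for Txnip and above them for the other 6.

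Genes widely reported as activated by Myc had a median change near that of all genes. Of 47 measured, 1 rose and 0 fell, 28 were above 0 and 19 below, and the median log2 fold change was 0.05, beside 0.03 over all genes. In 10 the deleted mice were above all controls and in 2 below, beside 12.5% and 8.68% of all genes. Together 12 of 47 did not overlap, beside 21.2% of all genes. The 1 called gene likewise stands beside 1.43% of all genes called. Pes1, a factor of large ribosomal subunit assembly, read 8.62, 8.76 and 8.56 in deleted mice, against 7.79, 7.75 and 8.25 in control mice. It rose by 0.72 ± 0.14 (SE, 1.64-fold, limma adjusted p = 0.0481), with control c nearer to the deleted mice than the other controls, and the call was lost on leaving out any array other than control c (up to 0.161). Of genes reported as repressed by Myc, Cebpa itself fell, as the targeted gene, and 0 of the other 12 passed. Those 12 had a median of 0.13, with 9 above 0 and 3 below. In 4 of the 12 the deleted mice lay above all controls, beside 12.5% of all genes. Cebpa was the 1 gene of this list below all controls. Of 8 other E-box proteins and partners 0 passed, with the smallest p for Tfap4, a helix-loop-helix factor induced by Myc, at 0.28 ± 0.11 (SE, adjusted p = 0.249), followed by Mlxipl.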

How the data were processed

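Gene expression was measured in 6 mice on 1-colour Affymetrix Mouse Gene 1.0 ST arrays, 1 array per mouse. The deposited values are log2 signals per probe set, which the authors made with RMA in Affymetrix Expression Console 1.1.2 as named in the submitters' processing notes; its settings and the annotation build are not known here. Of 35556 rows, 21789 named 1 gene, 1621 several, and 12146 are unnamed here. For 999 of 19938 genes the row with the highest mean over 6 arrays was kept. No filter was applied, and 3 arrays per genotype limit the precision.

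The test was limma 3.58.1 under R 4.3.3 (lmFit, eBayes, two-sided, Benjamini-Hochberg over all genes, threshold 0.05). It was checked on data simulated from its own fitted prior variance, which cannot show whether that prior holds for these arrays. The members, lists and search words were chosen with earlier results of these data known. Of each other list the text names the called genes, or else the 2 with the smallest p; Pim3, Arrdc4, Mlxip and the marker genes were added after their values were seen. Chromosomes and promoters are from RefSeq, GRCm38.p6. The alternatives were other priors, dim-row filters, scalings, row rules, array weights, a block, an ordinary test and leaving out each array.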

Additional observations from a re-analysis of the deposited data

How the results depend on the processing

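None of the 10 members passed under any of the 18 alternatives, and 8 of them kept their direction in all 18. Mnt was at 0.0066 after quantile normalization, 0.0328 after median centring and -0.054 to 0.0452 with 1 array left out, and Mlx at -0.0642 to 0.1409 with 1 array left out. The median of all genes lay between 0.01 and 0.08 under the scalings. The test called 286 genes with the deposited values, 438 when genes below the median intensity were left out, 0 with an ordinary pooled-variance test (2585 had an unadjusted p under 0.05, and 3164 in limma) and 53 to 250 with 1 array left out. With every deposited row tested, 13 rows were called, named or not, of which 8 were the row used here for a gene. With quantile normalization 207 were higher and 129 lower, and with median centring 231 and 120, against 140 and 146. Of the 7 other network genes, 0 remained called with every row and 0 with the ordinary test, and 1 to 5 genes were called with 1 array left out: Txnip alone without control b, Rybp and Txnip without deleted a or c. The fall of Cebpa, -1.71, had an adjusted p of 0.0513 with every row and 0.187 with the ordinary test. Deviations of same-lettered mice from their group means correlated at -0.01, -0.04 and 0.06 over all genes. With 3 mice per group these values cannot decide whether the sample letters pair the mice. With the letters as a replicate block 274 genes and 5 other network genes were called. Trrap (-0.67, adjusted p = 0.0399) was among them and Rnf2, Pim1 and Pes1 were not. The causes were not tested. Signal over background was not measured.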

Other observations

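Several genes around the network came close to the threshold, chosen here after their values were seen. Ccnd2, which encodes cyclin D2 and is a known target of Myc, read 9.78, 9.67 and 9.86 in deleted mice, against 10.34, 10.16 and 10.21 in control mice, a difference of -0.46 ± 0.11 on the log2 scale (SE, limma adjusted p = 0.0692) without overlap. Ccnd2 passed when the prior variance followed intensity and when genes below the median intensity were left out. Sap30, a subunit of the Sin3 corepressor, differed by 0.42 ± 0.11 on the log2 scale (SE, adjusted p = 0.0919), with deleted mice at 9.70, 9.56 and 9.75 and control mice at 9.17, 9.26 and 9.34.

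Probe sets of a gene did not always move alike. A second probe set of Trrap had a log2 fold change of -0.38, in the same direction as the -0.67 of the one used. Cdkn1b, the cell cycle inhibitor p27, had 0.39 in the probe set with the higher signal and -0.21 in the other.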
